A study of Mus musculus with 24 samples.

Results

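The RNA levels of Dchs1, Ngfr, Ptn, Apod, Mfsd6, Cd28, Moxd1, Gal3st2 and Car6 still stood away from those of untreated cells after OSK had been withdrawn. They are 9 of the 26206 gene symbols measured, and they were chosen by their symbols for having the largest differences between withdrawal and untreated cells at 3 or at 24 months. The difference at 3 months chose Dchs1, Ptn, Apod, Cd28, Moxd1 and Gal3st2, and the difference at 24 months chose Ngfr, Dchs1, Mfsd6 and Car6. The values that chose a gene are given as a description with no test. Tests are given only at the age that did not choose a gene, and between the OSK groups of the 2 ages.

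The cells were mouse ear fibroblasts with a transgene, inducible by doxycycline, for OSK, the 3 transcription factors Oct4 (gene symbol Pou5f1), Sox2 and Klf4. Polyadenylated RNA was sequenced in 6 groups of 4 libraries: untreated cells, cells with OSK, and cells with OSK followed by withdrawal, each at 3 and at 24 months, the ages that the sample titles give. OSK cells were induced with doxycycline over 6 days, and withdrawal cells spent a further 4 days without the drug. All groups were described as carrying the transgene; the labels say neither whether untreated cells received doxycycline nor on which day they were harvested, and they do not name the promoter that drives OSK. Replicates are numbered in the titles, and the library names carry letters that recur across the 3 treatments of an age with the same number, but nothing says what the letters mark or that replicates came from separate animals or cultures, so p-values measure only the spread between these samples, which may be technical.

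The libraries held 20693177 to 32587822 reads assigned to genes, and no pair of libraries had identical values. Values are normalized counts, that is, reads per gene divided by 1 factor per library. Pou5f1 averaged 4.38 ± 3.48 and 15.3 ± 11.4 in untreated cells, 3001.7 ± 724.4 and 4596.8 ± 1371.6 with OSK, and 7.92 ± 4.17 and 3.91 ± 3.46 after withdrawal, at 3 and 24 months (SD, n = 4). Sox2 averaged 12.5 ± 7.23 and 55.1 ± 21.9, 3198.2 ± 522.4 and 5526.0 ± 1394.8, and 7.97 ± 8.21 and 76.9 ± 39.0 in the same order. Klf4 averaged 664.6 ± 179.7 after withdrawal against 2473.5 ± 665.1 in untreated cells at 3 months, and 841.7 ± 516.0 against 1545.5 ± 320.2 at 24 months (SD, n = 4). All 10 fibroblast markers, such as Col1a1 and Vim, were present. Their summed level ranged at 3 months from 1466322.2 to 1813792.9 in untreated libraries, from 1217365.7 to 1311054.0 with OSK and from 1195886.2 to 1998053.0 after withdrawal. At 24 months it ranged from 1519850.5 to 2141207.3, from 805240.0 to 1013829.3 and from 1185958.9 to 1871378.3 in the same order. The sum was thus lower in all OSK libraries than in all untreated libraries at both ages. Its largest part in untreated cells was Fn1, at 542258.3 ± 58782.6 with OSK against 845611.2 ± 102116.5 at 3 months (SD, n = 4). Not every marker was lower with OSK. At 3 months Col1a1 averaged 189272.9 ± 29034.3 against 163307.2 ± 24605.6, and Thy1 21411.6 ± 2483.4 against 2087.7 ± 353.6. Pdgfra averaged 13954.2 ± 1326.1 against 9025.0 ± 3737.6. The cultures also held chondrocyte markers, which are given below beside Cd28, Moxd1, Gal3st2 and Car6. In RNA from a whole culture, fewer cells of a type and less RNA per cell cannot be told apart.

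OSK are factors of the pluripotent state. When they are expressed for a limited time, a differentiated cell changes its gene expression without completing the change to a stem cell, and withdrawing the inducer tests which changes persist. Dchs1 and Ngfr encode proteins of the cell surface: Dchs1 is a large cadherin that binds the cadherin Fat4 on the neighbouring cell and takes part in planar polarity, and Ngfr is the p75 receptor that binds neurotrophins such as BDNF. Ptn and Apod encode secreted proteins, the heparin-binding growth factor pleiotrophin and the lipid-binding lipocalin apolipoprotein D. Mfsd6 is a membrane protein of the major facilitator superfamily. Among the genes that were lower, Cd28 is the costimulatory receptor of T cells, Moxd1 is a relative of the copper enzyme dopamine beta-hydroxylase, Gal3st2 is a sulfotransferase that adds sulfate to galactose, and Car6 is the secreted carbonic anhydrase best known from saliva.

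The promoters of 4 of these genes are shown because OSK proteins bind DNA: 3 that held a match to a searched motif, and that of Ngfr, which had the largest difference with OSK at 3 months. A RefSeq table of promoters for GRCm38.p6 matched 7 of the 9 genes, and Dchs1 and Cd28 were not in it. The windows follow the starts in that table, which are not the ends of the gene spans given below. All 4 windows printed here lie partly inside those spans. The 250 bases before each start were searched on both strands for the octamer ATGCAAAT bound by Oct4, the SOX core CATTGT and the KLF core GGGNGTGG, 3 motifs that do not overlap in the windows printed here. Capitals mark the matches. The windows, printed 5′ to 3′ along the strand of the gene, lie at chr11:95587699-95587948 (minus strand) for Ngfr, chr1:52727359-52727608 (minus strand) for Mfsd6, chr1:93861094-93861343 (plus strand) for Gal3st2 and chr4:150201136-150201385 (minus strand) for Car6.
Ngfr: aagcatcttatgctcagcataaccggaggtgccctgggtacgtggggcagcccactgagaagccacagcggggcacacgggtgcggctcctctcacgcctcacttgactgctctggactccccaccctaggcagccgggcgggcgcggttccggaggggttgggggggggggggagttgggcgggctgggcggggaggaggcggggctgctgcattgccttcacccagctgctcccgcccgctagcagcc
Mfsd6: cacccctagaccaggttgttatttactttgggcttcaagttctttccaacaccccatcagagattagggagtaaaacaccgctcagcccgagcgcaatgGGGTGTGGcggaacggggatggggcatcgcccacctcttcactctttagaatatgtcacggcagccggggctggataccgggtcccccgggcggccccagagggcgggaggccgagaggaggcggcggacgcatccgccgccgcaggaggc
Gal3st2: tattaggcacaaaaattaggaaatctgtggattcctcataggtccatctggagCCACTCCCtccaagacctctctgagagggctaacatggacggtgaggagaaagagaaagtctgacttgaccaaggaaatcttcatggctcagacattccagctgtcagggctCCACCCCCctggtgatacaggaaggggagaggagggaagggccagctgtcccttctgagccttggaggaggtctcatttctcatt
Car6: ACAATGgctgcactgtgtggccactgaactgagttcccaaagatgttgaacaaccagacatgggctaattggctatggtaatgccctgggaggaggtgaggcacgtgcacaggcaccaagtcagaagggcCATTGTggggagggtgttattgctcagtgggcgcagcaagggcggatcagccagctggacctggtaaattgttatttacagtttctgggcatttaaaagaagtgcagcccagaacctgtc
Mfsd6, which was higher, had 1 KLF match, and Gal3st2, which was lower, had 2, both on the opposite strand. A second Mfsd6 window, at chr1:52727319-52727568, overlaps the printed one and held the same match. Car6, which was lower, had 2 SOX matches, the second of them inside the gene span given below. Ngfr, which was higher, had none of the 3 motifs, and the windows of Ptn, Apod and Moxd1 had none either. Of 32851 promoter windows of this length in the table, 15.87% held the KLF core, 10.69% the SOX core and 1.6% the octamer. Of the 7 genes, 2 held the KLF core, 1 the SOX core and 0 the octamer. A match is a run of letters and not a measured binding site, and its absence says only that these letters are not in this window.

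All 10 pairs of a gene and the age that chose it had a mean in OSK cells on the same side of untreated cells as in withdrawal cells, at least 1 log2 unit away. None of these genes was one whose difference appeared only after withdrawal. The same class was not counted over all genes tested, so nothing particular to these genes is read from 10 of 10. Both differences are taken from the same 4 untreated libraries, so a high or low untreated library moves both, and the values of each gene are given side by side below. After withdrawal at 3 months, 5 of the 9 genes had all 4 libraries above all untreated libraries and 3 had all below, with Car6 overlapping; 16.0% of all 14138 genes tested had groups that did not overlap in that comparison. At 24 months 6 of the 9 did not overlap, against 6.87% of genes tested. For OSK against untreated the counts were 9 of 9 at 3 months, against 44.6% of genes tested, and 8 of 9 at 24 months, against 36.9%. Nothing is read from these counts where the same contrast chose the gene.

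**Figure D1:**
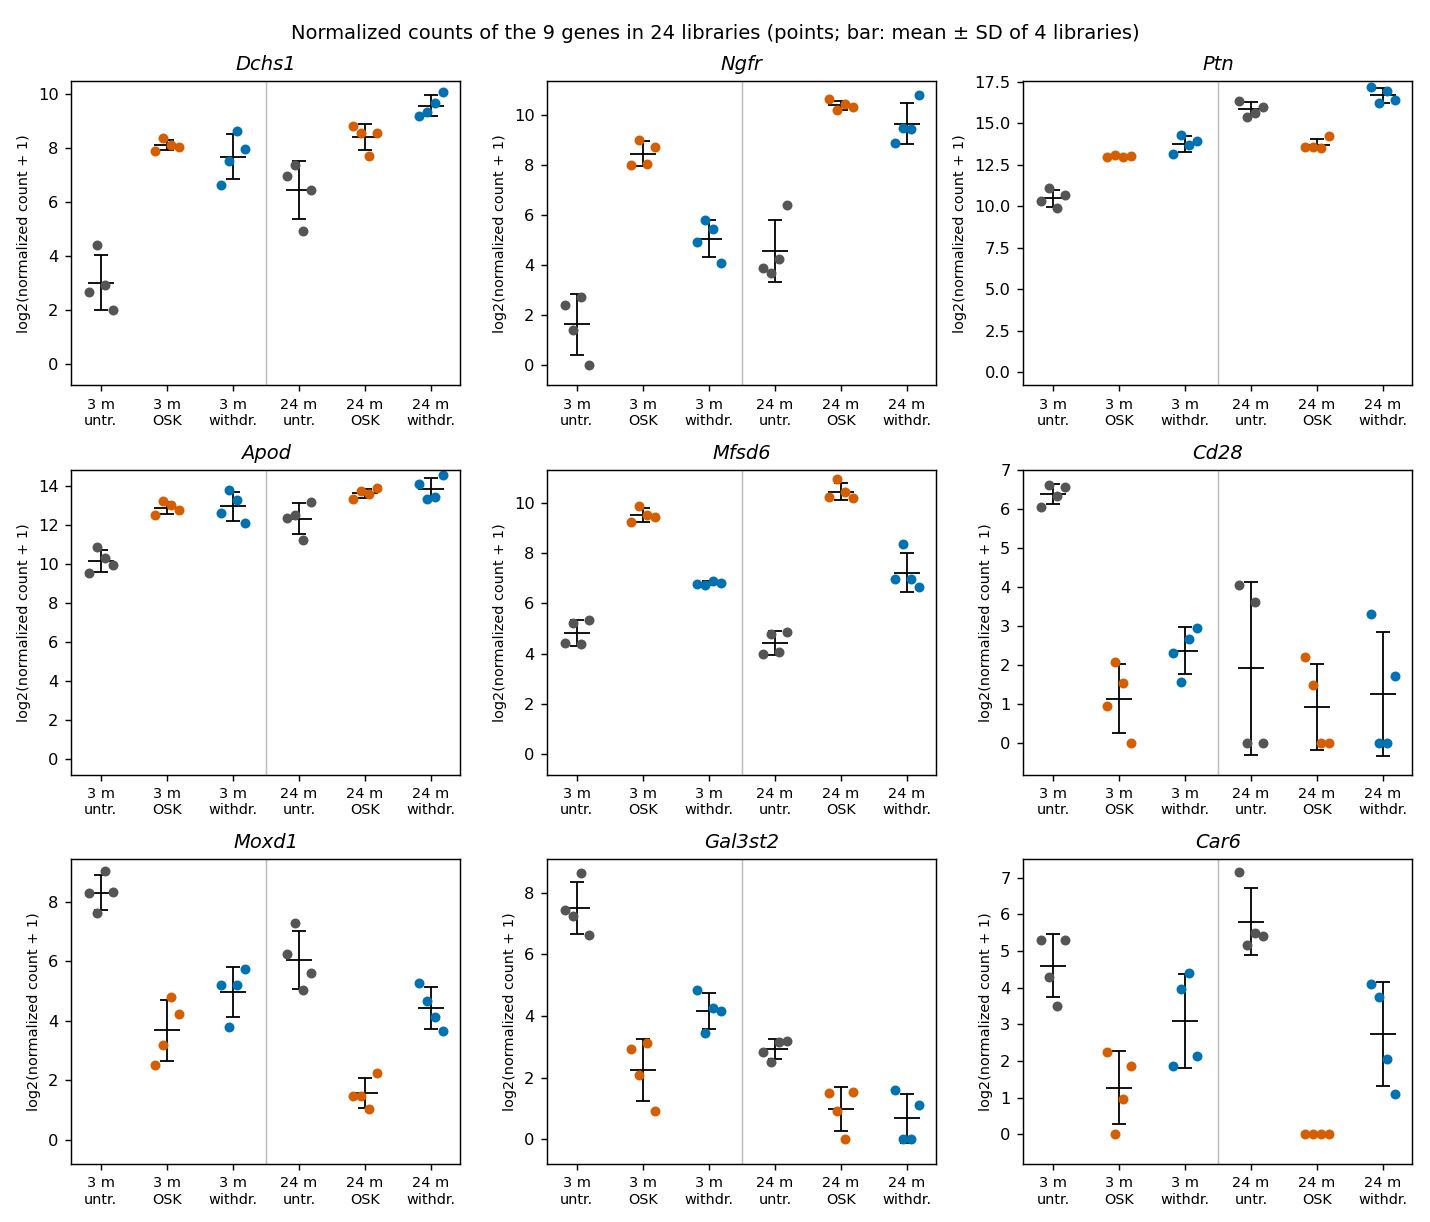
Each point is 1 library, on the log2(normalized count + 1) scale, for the 9 genes in 6 groups of 4 libraries; bars give the mean and SD of the log2 values. Ptn is higher with OSK than without at 3 months and lower with OSK than without at 24 months, and Car6 is at 0 in all 4 OSK libraries at 24 months.

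The choice can be placed among the genes called by limma (adjusted p under 0.05) with no overlap between groups and a mean of 50 or more in the higher group. At 3 months 424 genes qualified as higher after withdrawal: Dchs1, Ptn and Apod led by log2 difference, with Apod at 2.79, and Pde9a at 2.67 and Stac2 and Gsta4 at 2.60 each followed. Of 648 that were lower, Cd28, Moxd1 and Gal3st2 led, with Gal3st2 at -3.32, and Dlx6 at -3.15, Plk3 at -3.07 and Erfe at -3.06 followed. At 24 months 70 were higher, led by Ngfr, Dchs1 and Mfsd6, with Mfsd6 at 2.80 and Pipox next at 2.79. Of 106 that were lower at 24 months Car6 led at -3.06, and Thbs4 at -2.80 and Chac1 at -2.32 followed and are not among the 9. All 9 genes passed the filter on low values (10 or more normalized counts in 4 or more libraries). Cd28 reached 10 in 6 libraries, only 2 of them outside the group where it was highest, and Gal3st2 in 7 libraries, only 3 outside; Car6 did so in 12 libraries, 8 outside. Cd28 and Gal3st2 thus passed through the group in which they were high and would not have been tested at 24 months on those libraries alone.

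Across all genes tested, limma called 4.01% higher and 5.57% lower in withdrawal than in untreated cells at 3 months, and 0.622% higher and 1.05% lower at 24 months. The 1355 genes called at 3 months became 631 without withdrawal replicate 2, and 712 and 873 without untreated replicates 1 and 3. With replicate number as a block they became 1831. The 237 called at 24 months became 730 without withdrawal replicate 2, and 59 to 111 without untreated replicate 1 or 2 or withdrawal replicate 1, 3 or 4; they became 10 in a fit of the 2 groups alone, 640 by DESeq2 and 654 with replicate number as a block. Counts of the 9 genes leave out Cd28 and Gal3st2, which passed the filter only through untreated 3-month cells, and, within an age, the genes chosen at that age. Of the others, 2 of 3 were higher after withdrawal at 3 months (Ngfr and Mfsd6), and at 24 months 1 of 3 was higher (Apod). For OSK against untreated, 19.1% of all genes were higher and 18.5% lower at 3 months, where 2 of the 3 genes tested were higher and 1 lower. At 24 months 21.4% were higher and 22.9% lower, where 1 of the 3 genes tested was higher and 2 were lower. For withdrawal against OSK, 20.6% were higher and 21.8% lower at 3 months, where 1 of 3 was higher and 2 were lower. At 24 months 23.3% were higher and 22.6% lower, where 2 of 3 were higher. Between the OSK groups, 5.20% of genes were higher and 6.71% lower at 24 than at 3 months, where 1 of 7 was higher (Ngfr) and 1 lower (Moxd1). The 1683 genes called there became 1078 without OSK 3-month replicate 1.

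**Figure D2:**
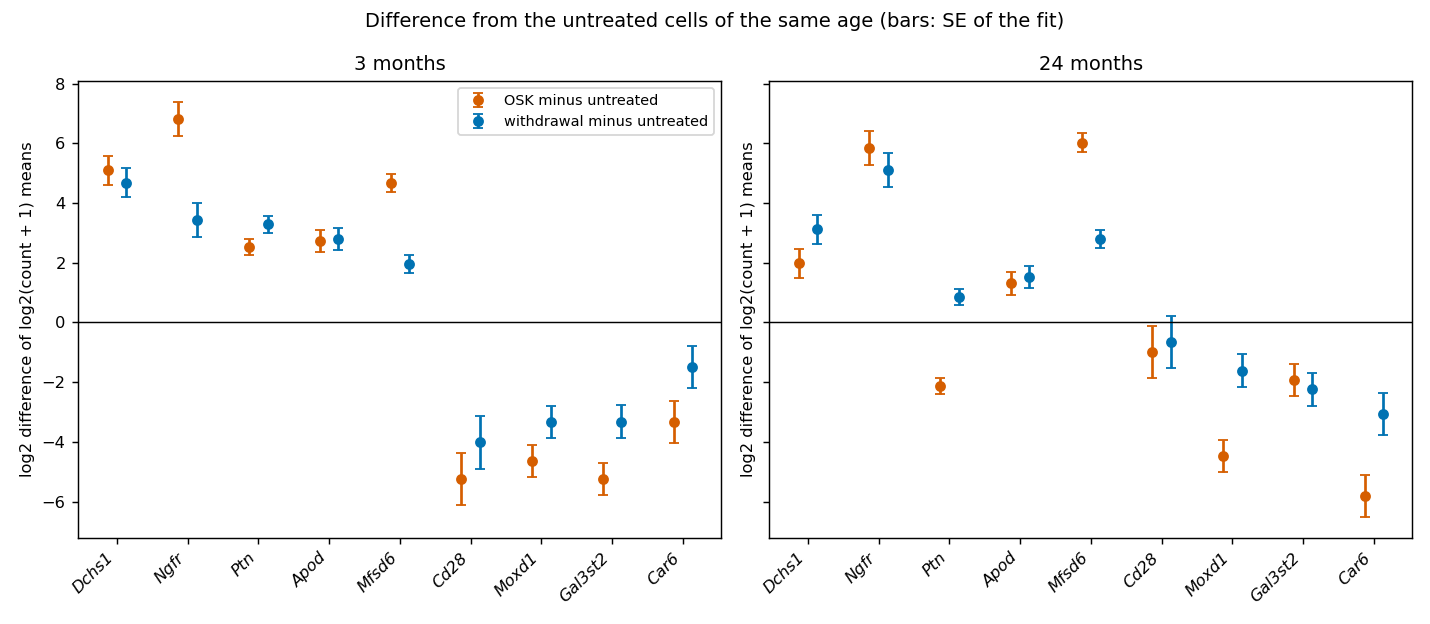
Each point is the fitted log2 difference from the untreated cells of the same age, for OSK (orange) and for withdrawal (blue), with its standard error (SE), for the 9 genes at 3 and 24 months. Ptn at 24 months is the only pair of points on opposite sides of 0, at -2.12 with OSK and 0.85 after withdrawal; the OSK point of Car6 at 24 months depends on the pseudocount because all its OSK libraries were at 0.

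Dchs1 (chromosome 7, 105752990 to 105787654, minus strand, GRCm38) was nearly silent in untreated young cells and was higher with OSK and after withdrawal at both ages. Untreated cells had 5.34, 20.37, 6.63 and 3.02 at 3 months and 123.16, 165.86, 29.48 and 86.86 at 24 months. Cells with OSK had 238.12, 325.08, 274.04 and 262.56 at 3 months and 450.71, 377.07, 207.6 and 376.34 at 24 months. After withdrawal the libraries had 97.38, 182.24, 393.06 and 247.16 at 3 months and 586.41, 634.45, 799.85 and 1074.88 at 24 months. At both ages every withdrawal library was above every untreated library, and at 24 months every withdrawal library was also above every OSK library. At 3 months the mean was 31.1-fold higher with OSK and 26.0-fold higher after withdrawal than in untreated cells, or 5.09 and 4.67 on the log2 scale (SE 0.487 each). The untreated mean at 3 months, 8.84, would be 4.997 without replicate 2. At 24 months the mean was 3.48-fold higher with OSK (log2 1.98) and 7.64-fold higher after withdrawal (log2 3.13).

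Dchs1 was chosen at both ages, so its test was between the OSK groups, where 24 months was not distinguishable from 3 months (log2 difference 0.31, adjusted p = 0.737, limma). Its exons overlap those of the opposite-strand pseudogene Gm15645 over 648 bases, 5.86% of its exon bases, and the use of strand in counting was not given in the sources used here. Of 15 other planar polarity genes, 12 were tested, and limma called 0 of them in withdrawal against untreated at either age. At an unadjusted p under 0.05 there were 2 at 3 months and 1 at 24 months; edgeR called 0 at both, and DESeq2 called 0 and 1. Their median log2 differences were 0.01 and -0.09, beside 0.00 and -0.01 over all genes tested. The frizzled receptor Fzd6 had the largest difference at each age. It averaged 40.7 ± 10.3 after withdrawal against 117.7 ± 35.8 at 3 months (SD, n = 4, adjusted p = 0.193, limma). At 24 months it averaged 43.9 ± 58.8 against 217.2 ± 275.5 (SD, n = 4, log2 -2.17, adjusted p = 0.118, limma). The cadherin Dchs2 had 36.0 ± 24.2 against 65.9 ± 18.8 at 3 months (adjusted p = 0.133, limma). Under OSK 1 of the 12 was called higher and 4 lower at 3 months, and 2 higher and 6 lower at 24 months. The medians with OSK were -0.64 and -1.77. The median over all genes tested with OSK was 0.01 at 3 months and 0.00 at 24 months. Fat4, the partner of Dchs1, fell with OSK at 24 months to 380.5 ± 108.0 from 7442.2 ± 1828.3 (SD, n = 4; adjusted p = 8.29e-09) and stood at 6473.6 ± 2605.2 after withdrawal. At 3 months it averaged 1144.5 ± 404.4 with OSK against 1723.6 ± 844.0 (SD, n = 4; adjusted p = 0.285), which was not called; it was named for its pairing with Dchs1, after its values were seen.

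Ngfr (chromosome 11, 95568818 to 95587735, minus strand, GRCm38) had the largest difference after withdrawal in old cells, where its mean was 926.2 ± 603.7 against 1365.4 ± 173.6 with OSK; at 3 months it was 36.0 ± 17.2 against 366.7 ± 126.5 (SD, n = 4). Untreated cells had 4.27, 1.7, 5.68 and 0 at 3 months and 13.88, 12.05, 18.14 and 84.17 at 24 months. With OSK the libraries had 255.93, 515.31, 267.26 and 428.2 at 3 months and 1597.79, 1195.42, 1386.84 and 1281.61 at 24 months. After withdrawal they had 29.35, 55.85, 42.72 and 15.97 at 3 months and 468.13, 720.61, 700.91 and 1815.3 at 24 months. All 24-month withdrawal libraries were above all untreated ones, and they overlapped the OSK libraries because replicate 4 exceeded every OSK library. The 24-month mean was 42.6-fold higher with OSK (log2 5.84) and 28.9-fold higher after withdrawal (log2 5.10, SE 0.574). Untreated replicate 4 at 24 months carried much of the untreated mean, which was 32.1 with it and 14.7 without it.

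At 3 months, which did not choose it, Ngfr rose with OSK to 366.7 from 2.91 ± 2.55 in untreated cells (SD, n = 4; log2 6.82, adjusted p = 6.72e-09, limma). It fell 10.2-fold on withdrawal relative to OSK (log2 -3.39, adjusted p = 6.22e-05, limma). After withdrawal it was above untreated cells (log2 3.43, SE 0.574, adjusted p = 0.000668, limma), from 12 reads in all 4 untreated libraries together to 138 in the withdrawal libraries. With so few untreated reads the sizes follow the pseudocount: with 0.1 and 10 in place of 1 they were 7.91 and 4.83 with OSK and 4.48 and 1.77 after withdrawal, called each time. The groups did not overlap in any of these 3 comparisons. OSK cells held 3.72-fold more Ngfr RNA at 24 than at 3 months (log2 1.95, SE 0.574, adjusted p = 0.0284, limma). That last call was lost when any library of the 2 groups except OSK 3-month replicates 2 and 4 was left out, with log2 differences of 1.80 to 2.01 and adjusted p = 0.0887 at most, and it was lost with a pseudocount of 0.1 (adjusted p = 0.15).

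Of 14 other genes of neurotrophin signalling, 12 were tested. After withdrawal at 24 months limma called 0, with 3 at an unadjusted p under 0.05 and 0 by edgeR and by DESeq2. At 3 months limma called 1 higher and 2 lower, with 5 at an unadjusted p under 0.05, 2 called by edgeR and 5 by DESeq2. Sort1, a co-receptor of Ngfr for the neurotrophin precursors, rose to a mean of 653.7 from 253.9 (log2 1.40, SE 0.275, adjusted p = 0.00218). The ligand Bdnf fell to 33.4 ± 26.5 from 151.3 ± 42.4 (SD, n = 4; adjusted p = 0.00241), and the receptor Ntrk3 fell to 87.6 ± 53.2 from 228.7 ± 63.3 (adjusted p = 0.0387). At 24 months Bdnf averaged 65.8 ± 46.4 after withdrawal against 179.6 ± 81.2 (adjusted p = 0.112). The median log2 difference of the 12 was -0.10 at 3 months and -0.02 at 24 months. With OSK 2 rose and 5 fell at 3 months, and 2 rose and 6 fell at 24 months. The medians with OSK were -1.16 and -1.15. Ngfr is also a marker of Schwann cells in ear tissue. Among 10 other Schwann cell markers, the defining factor Foxd3 was at 0 in every library and Sox10 reached at most 0.94 in any. The summed Schwann list, mostly S100b in untreated and withdrawal cells, ranged at 3 months from 3992.8 to 7457.5 in untreated libraries, from 976.8 to 1666.8 with OSK and from 2928.9 to 7233.1 after withdrawal. At 24 months it ranged from 180.7 to 3520.8, from 426.8 to 648.1 and from 264.1 to 2733.6 in the same order. Within it Mbp averaged 317.3 ± 65.2 with OSK against 74.2 ± 21.6 in untreated cells at 3 months and 175.0 ± 67.8 against 44.1 ± 9.13 at 24 months (SD, n = 4), so Mbp, like Ngfr, was higher with OSK. Erbb3 averaged 31.4 ± 5.06 against 18.9 ± 6.41 and 43.4 ± 26.0 against 28.8 ± 17.5 (SD, n = 4). The part of these markers in the Ngfr values was not tested.

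Ptn (chromosome 6, 36714929 to 36810220, minus strand, GRCm38) was higher with OSK in young cells and lower with OSK in old cells. The untreated libraries had 1271.38, 2182.68, 940.79 and 1612.88 at 3 months, against 83342.36, 43436.63, 49597.72 and 65386.76 at 24 months. OSK libraries had 7939.52, 8763.45, 8149.42 and 8448.52 at 3 months and 12025.45, 12200.11, 11764.95 and 19248.49 at 24 months, so the 2 ages came within 1.66-fold of each other from untreated means 40.2-fold apart. Withdrawal libraries had 8998, 20358.58, 13195.18 and 15570.92 at 3 months and 148588.32, 77809.84, 125926.04 and 85649.16 at 24 months. At 3 months all withdrawal libraries exceeded all OSK libraries, and both exceeded all untreated libraries; the means were 5.54-fold (OSK, log2 2.54) and 9.68-fold (withdrawal, log2 3.28, SE 0.269) above untreated cells.

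At 24 months Ptn fell 4.38-fold with OSK (log2 -2.12, adjusted p = 1.4e-06, limma), with no overlap. On withdrawal it rose 7.93-fold from the OSK level (log2 2.97, adjusted p = 1.11e-08, limma), again with no overlap. Its level after withdrawal was 1.81-fold that of untreated cells with overlapping libraries (log2 0.85, adjusted p = 0.107, limma). The last difference was called without withdrawal replicate 2 (log2 1.00, adjusted p = 0.0446) and by DESeq2 (log2 0.86, adjusted p = 0.0377). Between libraries of the same number it was positive in all 4 (0.39 to 1.34), and it was called with the number as a block (adjusted p = 0.0314). The OSK groups of the 2 ages differed by 0.70 on the log2 scale (adjusted p = 0.0963, limma), and DESeq2 called that difference (adjusted p = 0.0457).

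Of 12 other genes of pleiotrophin and midkine signalling, 10 were tested. After withdrawal at 3 months the syndecan Sdc1 rose to 6003.6 ± 437.0 from 4174.1 ± 467.7 (SD, n = 4; adjusted p = 0.0184), and the syndecan Sdc2 fell to 3945.2 ± 375.3 from 5021.2 ± 327.5 (adjusted p = 0.0421); edgeR called 2 of the 10 and DESeq2 3. Mdk, the midkine paralog of Ptn, averaged 1113.0 ± 747.0 against 358.7 ± 194.4 (adjusted p = 0.0802). After withdrawal at 24 months limma called 0 of 10, with 2 at an unadjusted p under 0.05 and 0 by edgeR and by DESeq2. With OSK 3 rose and 3 fell at 3 months, and 1 rose and 4 fell at 24 months; Mdk fell at both ages, to 67.5 ± 41.0 from 358.7 ± 194.4 and to 17.2 ± 1.90 from 420.3 ± 158.1 (SD, n = 4; adjusted p = 0.00111 and 8.22e-07). At 3 months Mdk fell with OSK in the comparison in which Ptn was higher. The median log2 differences of the 10 genes were 0.06 and -0.02 after withdrawal and 0.14 and -0.15 with OSK, at 3 and 24 months.

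Apod (chromosome 16, 31296192 to 31314808, minus strand, GRCm38) stood at nearly the same level with OSK and after withdrawal at both ages. Untreated cells had 746.18, 1894.99, 1291.93 and 989.67 at 3 months and 5307.23, 5968.03, 2427.73 and 9238.62 at 24 months. OSK cells had 6000.81, 9806.11, 8396.34 and 6983.31 at 3 months and 10327.4, 13882.91, 12281.33 and 15171.49 at 24 months. Withdrawal cells had 6273.92, 14581.87, 10097.72 and 4479.94 at 3 months and 17492.06, 10452.15, 11000.08 and 24428.19 at 24 months. Untreated libraries were below all OSK and all withdrawal libraries of their age, while OSK and withdrawal libraries overlapped at both ages. At 3 months the log2 differences from untreated were 2.72 with OSK and 2.79 after withdrawal, 6.34-fold and 7.20-fold (SE 0.377 each).

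At 24 months Apod rose 2.25-fold with OSK (log2 1.31, adjusted p = 0.00718, limma). After withdrawal it was 2.76-fold above untreated cells (log2 1.53, SE 0.377, adjusted p = 0.0422, limma), and the difference from OSK was not called (log2 0.22, adjusted p = 0.671; -0.02 without withdrawal replicate 4). The withdrawal call was lost when any library of the 2 groups except untreated replicate 4 or withdrawal replicate 2 was left out, with log2 differences of 1.17 to 1.67 and adjusted p = 0.156 at most, and edgeR gave adjusted p = 0.0508. The OSK groups of the 2 ages did not overlap, but their log2 difference of 0.74 was not called (adjusted p = 0.223, limma). Of 9 other lipocalins 4 were tested, and limma called 0 after withdrawal at either age, with 2 and 0 at an unadjusted p under 0.05 and 0 by edgeR and by DESeq2. The retinol carrier Rbp4 averaged 899.2 ± 93.6 after withdrawal against 2770.3 ± 764.2 at 3 months (SD, n = 4; adjusted p = 0.173), and the siderophore binder Lcn2 averaged 114.6 ± 31.4 against 257.6 ± 137.5 (adjusted p = 0.189). With OSK 0 rose and 3 fell at 3 months, and 0 rose and 2 fell at 24 months. The median log2 differences of the 4 lipocalins were -0.40 and 0.15 after withdrawal and -1.99 and -1.22 with OSK. Rbp4 fell to 95.4 ± 58.3 from 2770.3 ± 764.2 with OSK at 3 months (adjusted p = 9.03e-06).

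Mfsd6 (chromosome 1, 52656286 to 52727462, minus strand, GRCm38) was low in untreated cells of both ages, high with OSK, and in between after withdrawal. Untreated cells had 20.28, 36.49, 19.88 and 39.26 at 3 months and 14.74, 26.87, 15.87 and 27.76 at 24 months. With OSK the libraries had 594.36, 942.32, 727.21 and 684.59 at 3 months and 1185.02, 1967.64, 1378.41 and 1169.27 at 24 months. After withdrawal they had 109.39, 103.86, 117.49 and 110.97 at 3 months and 123.3, 325.62, 122.89 and 99.18 at 24 months. The 3 conditions did not overlap at either age, and the 3-month withdrawal libraries lay close together (110.4 ± 5.61; SD, n = 4). At 24 months the mean was 66.9-fold above untreated cells with OSK (log2 6.02) and 7.87-fold after withdrawal (log2 2.80, SE 0.309).

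At 3 months Mfsd6 rose 25.4-fold with OSK (log2 4.67, adjusted p = 2.04e-10, limma). It fell 6.68-fold on withdrawal relative to OSK (log2 -2.71, adjusted p = 4.71e-07, limma). It stayed 3.81-fold above untreated cells (log2 1.96, SE 0.309, adjusted p = 0.000451, limma). OSK cells at 24 months had 1.93-fold the level at 3 months without overlap, and limma did not call the difference (log2 0.94, adjusted p = 0.0505), whereas it was called without OSK 3-month replicate 2 (log2 1.06, adjusted p = 0.0465), by edgeR (adjusted p = 0.03) and by DESeq2 (adjusted p = 0.0145). Of 15 other carriers of its group, 13 were tested. After withdrawal at 24 months limma called 0, with 3 at an unadjusted p under 0.05, 0 by edgeR and 1 by DESeq2; Mfsd9 averaged 115.6 ± 38.1 against 216.1 ± 133.4 (SD, n = 4; adjusted p = 0.181). At 3 months 1 was called higher and 1 lower, Mfsd14a at 0.30 and Mfsd8 at -0.44 on the log2 scale (adjusted p = 0.0443 and 0.027); edgeR and DESeq2 also called 2. With OSK 0 rose and 3 fell at 3 months, and 2 rose and 3 fell at 24 months. The medians of the 13 were -0.04 and -0.12 after withdrawal and -0.18 and -0.17 with OSK.

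Cd28 (chromosome 1, 60716800 to 60773359, plus strand, GRCm38) exceeded 10 normalized counts only in the 4 untreated young libraries and 2 untreated old ones. Untreated cells had 65.12, 96.74, 79.5 and 94.64 at 3 months and 15.61, 0, 11.34 and 0 at 24 months. OSK cells had 0.94, 3.21, 1.94 and 0 at 3 months and 3.61, 1.81, 0 and 0 at 24 months. Withdrawal cells had 4, 1.96, 5.34 and 6.73 at 3 months and 9.02, 0, 0 and 2.31 at 24 months. At 3 months the untreated libraries were above all others, and the mean was 18.6-fold lower after withdrawal (log2 -4.02, SE 0.879). With OSK it was 1.52 ± 1.38 against 84.0 ± 14.7 (SD, n = 4; log2 -5.25), under the level of 3 reads per library and 0.96 without replicate 2, so no fold is given. Those OSK and withdrawal means rest on 7 and 18 reads in 4 libraries.

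At 24 months Cd28 had 28, 6 and 11 reads in the untreated, OSK and withdrawal libraries, and limma called no comparison: the log2 differences from untreated were -0.996 with OSK (adjusted p = 0.382, limma) and -0.66 after withdrawal (adjusted p = 0.785, limma). The untreated libraries ranged from 0 to 15.61, and their mean of 6.74 would be 3.78 without replicate 1. Cd28 passed the filter on low values through the untreated 3-month group, which is on neither side of these comparisons, and on the 24-month libraries alone it would not have been tested. Leaving out untreated replicate 1 turned the sign of the withdrawal difference (log2 0.05, adjusted p = 0.993). The log2 difference between withdrawal and OSK was 0.34 at 24 months (adjusted p = 0.784, limma) and -0.35 without withdrawal replicate 1. That between the OSK groups was -0.22 (adjusted p = 0.909, limma) and 0.09 without OSK 3-month replicate 2, or without OSK 24-month replicate 3 or 4. Of 10 T cell markers, Cd4 was at 0 in every library, and Cd3d and Cd3e averaged 0.71 and 0.21 in untreated 3-month cells, where Cd28 was highest. The T cell list summed to between 0 and 6.62 in those 4 libraries, between 8.8 and 24.4 with OSK at 3 months and between 12.2 and 26.3 with OSK at 24 months. Only 1 of the 10, the kinase Lck, passed the filter on low values, and it averaged 1.64 ± 1.13 in untreated cells and 13.1 ± 8.82 with OSK at 3 months (SD, n = 4). Of 10 other members and ligands of the CD28 family 4 were tested, and limma called 0 after withdrawal at either age, with 0 and 1 at an unadjusted p under 0.05 and 0 by edgeR and by DESeq2. The ligand Cd80 averaged 152.9 ± 5.53 after withdrawal against 189.0 ± 44.0 at 3 months (SD, n = 4; adjusted p = 0.526), and fell with OSK to 83.2 ± 9.49 (adjusted p = 0.000821). With OSK 2 of the 4 fell at each age, Cd80 and Cd276. The medians of the 4 were -0.06 at both ages after withdrawal, and -0.56 and -0.62 with OSK.

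Moxd1 (chromosome 10, 24223517 to 24302790, plus strand, GRCm38) was lower with OSK at both ages and partly back after withdrawal. Untreated cells had 310.64, 194.34, 521.5 and 318.15 at 3 months and 75.46, 154.74, 31.75 and 48.36 at 24 months. OSK cells had 4.69, 8.03, 27.11 and 17.62 at 3 months and 1.81, 1.81, 1.05 and 3.74 at 24 months. Withdrawal cells had 36.02, 12.74, 36.32 and 52.12 at 3 months and 38.09, 24.62, 16.66 and 11.53 at 24 months. At 3 months the untreated libraries were above all others, while OSK and withdrawal libraries overlapped; the means were 23.4-fold lower with OSK (log2 -4.63) and 9.80-fold lower after withdrawal (log2 -3.32, SE 0.538).

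At 24 months Moxd1 fell with OSK from 77.6 ± 54.5 to 2.10 ± 1.15 (SD, n = 4; log2 -4.48, adjusted p = 6.07e-07, limma), or 9 reads in the 4 libraries together. That mean is under the level of 3 reads per library, so no fold is given against it. On withdrawal Moxd1 rose to 22.7 ± 11.6 (SD, n = 4; log2 2.87, adjusted p = 0.000136, limma), and all withdrawal libraries were above all OSK libraries. Both log2 differences were smaller with a pseudocount of 10, at -2.67 and 1.37, and still called. The remaining difference from untreated cells was 3.41-fold with overlapping libraries (log2 -1.61, adjusted p = 0.127, limma); DESeq2 called it (log2 -1.77, adjusted p = 0.0272), it was negative between all 4 libraries of the same number (-2.60 to -0.89), and it was called with the number as a block (adjusted p = 0.0419). OSK cells had less Moxd1 at 24 than at 3 months (log2 -2.11, SE 0.538, adjusted p = 0.012, limma). That call was lost without OSK 3-month replicate 3 (log2 -1.74, adjusted p = 0.0571) and with a pseudocount of 10 (log2 -0.92, adjusted p = 0.135). Of the 3 other copper monooxygenases only the peptide-amidating enzyme Pam was tested, and it averaged 22755.5 ± 2887.5 after withdrawal against 24173.5 ± 2356.8 at 3 months (SD, n = 4; adjusted p = 0.75). Limma, edgeR and DESeq2 called it in 0 of the 2 withdrawal comparisons, and 0 had an unadjusted p under 0.05.

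Gal3st2 (chromosome 1, 93861306 to 93876494, plus strand, GRCm38) was high only in untreated young cells. Its counts are uncertain, because 71.18% of the 50-base stretches of its transcripts also occur in the near-identical genes Gal3st2b and Gal3st2c, and how reads shared by such copies were counted was not given in the sources used here. Untreated cells had 172.93, 151.9, 400.36 and 98.67 at 3 months and 6.07, 4.63, 7.94 and 8.06 at 24 months. OSK cells had 6.56, 3.21, 7.75 and 0.88 at 3 months and 1.81, 0.9, 0 and 1.87 at 24 months. Withdrawal cells had 28.01, 9.8, 18.16 and 16.81 at 3 months and 2, 0, 0 and 1.15 at 24 months. At 3 months the 3 conditions did not overlap, with untreated highest and OSK lowest; the means were 44.8-fold lower with OSK (log2 -5.24) and 11.3-fold lower after withdrawal (log2 -3.32, SE 0.543).

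At 24 months Gal3st2 was under 10 in every library, with 28 reads in the 4 untreated libraries, 5 with OSK and 3 after withdrawal, so no fold is given. Gal3st2 passed the filter on low values through the untreated 3-month group, which is on neither side of the 24-month comparisons, and on the 24-month libraries alone it would not have been tested. In the fit over all groups the log2 difference with OSK was -1.93 (adjusted p = 0.00599, limma), and it was not called with a pseudocount of 10 (log2 -0.58, adjusted p = 0.102). The withdrawal difference was called (log2 -2.24, adjusted p = 0.0403, limma), but the call was lost when any library of the 2 groups except withdrawal replicates 1 and 2 was left out, with log2 differences of -2.385 to -2.017 and adjusted p = 0.122 at most, with a pseudocount of 10 (log2 -0.63, adjusted p = 0.269) and by edgeR (log2 -2.86, adjusted p = 0.075). The difference between withdrawal and OSK at 24 months was not called (log2 -0.31, adjusted p = 0.675), and the OSK groups differed by -1.27 on the log2 scale (adjusted p = 0.136, limma), which was called without OSK 3-month replicate 4 (log2 -1.72, adjusted p = 0.0475). Of 9 other genes of galactose sulfation 6 were tested, and limma called 0 after withdrawal at either age, with 1 and 0 at an unadjusted p under 0.05 and 0 by edgeR and by DESeq2. Gal3st1, the sulfatide-making relative, averaged 222.8 ± 37.1 after withdrawal against 137.6 ± 24.4 at 3 months without overlap (SD, n = 4; adjusted p = 0.133). With OSK 1 rose and 4 fell at 3 months, and 1 rose and 3 fell at 24 months; Papss2, which makes the sulfate donor, fell to 1496.1 ± 116.5 from 7545.9 ± 1921.7 at 3 months (SD, n = 4; adjusted p = 1.21e-05). The medians of the 6 were -0.09 and -0.02 after withdrawal and -0.59 and -0.24 with OSK.

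Car6 (chromosome 4, 150187015 to 150201332, minus strand, GRCm38) was absent from the reads of all 4 OSK libraries at 24 months and was measured again after withdrawal. Untreated cells had 38.43, 18.67, 10.41 and 38.26 at 3 months and 140.51, 35.21, 44.22 and 41.19 at 24 months. OSK cells had 3.75, 0, 0.97 and 2.64 at 3 months and 0, 0, 0 and 0 at 24 months. Withdrawal cells had 2.67, 14.7, 20.29 and 3.36 at 3 months and 16.04, 12.31, 3.12 and 1.15 at 24 months. At 24 months the 3 conditions did not overlap. The OSK mean there was at least 22.9-fold lower than in untreated cells, counting 3 reads per library as the limit for a count of 0, which covers counting error only. The withdrawal mean was 8.01-fold lower (log2 -3.06, SE 0.705) than in untreated cells, whose mean of 65.3 would be 40.2 without replicate 1, and at least 2.86-fold higher than with OSK.

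At 3 months, which did not choose it, Car6 fell with OSK from 26.4 ± 14.2 to 1.84 ± 1.68 (SD, n = 4; log2 -3.33, adjusted p = 0.000666, limma), with no overlap (log2 -1.54 with a pseudocount of 10, also called). The OSK mean rests on 8 reads, is under the level of 3 reads per library and would be 1.20 without replicate 1, so no fold is given against it. On withdrawal Car6 rose to 10.3 ± 8.67 with overlapping libraries (SD, n = 4; log2 1.82, SE 0.705, adjusted p = 0.0414, limma). That call was lost without OSK replicate 2 or 3 or withdrawal replicate 2 or 3, with log2 differences of 1.39 to 1.73 and adjusted p = 0.146 at most, and with a pseudocount of 10 (log2 0.68, adjusted p = 0.147). The difference from untreated cells was 2.58-fold with overlap and was not called (log2 -1.51, adjusted p = 0.186, limma). The OSK groups were not distinguishable (log2 -1.27, adjusted p = 0.268, limma), both at or near the limit of 3 reads. Of 15 other carbonic anhydrases 10 were tested, and limma called 0 after withdrawal at either age, with 2 at each age at an unadjusted p under 0.05, 0 by edgeR, and 1 and 0 by DESeq2. Their median log2 differences were 0.53 at 3 months and 0.04 at 24 months. With OSK the medians were 0.14 and -0.22. The membrane enzyme Car12 averaged 31.1 ± 24.1 after withdrawal against 42.6 ± 13.0 at 24 months (SD, n = 4; adjusted p = 0.525). With OSK 1 rose and 2 fell at 3 months, and 0 rose and 2 fell at 24 months; Car12 fell at 3 months to 12.9 ± 1.79 from 88.4 ± 29.4 (adjusted p = 0.00108).

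The 9 genes also differed between untreated cells of the 2 ages, which is given as a description because untreated libraries entered the choice. Untreated means at 24 months were higher for Ptn (40.2-fold), Dchs1 (11.5-fold), Ngfr (11.0-fold) and Apod (4.66-fold), and lower for Gal3st2 (30.9-fold), Cd28 (12.5-fold) and Moxd1 (4.33-fold), in each case with no overlap. Single libraries weigh on some of these means: at 24 months that of Cd28, 6.74, was 3.78 without replicate 1, that of Ngfr, 32.1, was 14.7 without replicate 4, and that of Car6, 65.3, was 40.2 without replicate 1. The 3-month mean of Dchs1, 8.84, was 4.997 without replicate 2, and that of Ngfr rests on 12 reads. Mfsd6 (1.36-fold lower) and Car6 (2.47-fold higher) overlapped. The 3-month withdrawal libraries overlapped the untreated 24-month libraries for Dchs1, Ngfr, Apod, Cd28 and Moxd1. They lay apart for Ptn (14530.7 ± 4741.3 against 60440.9 ± 17848.0), Mfsd6 (110.4 ± 5.61 against 21.3 ± 6.96), Gal3st2 (18.2 ± 7.5 against 6.68 ± 1.64) and Car6 (10.3 ± 8.67 against 65.3 ± 50.3; SD, n = 4 each).

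The order of the 6 group means showed which neighbouring levels could be told apart. For Dchs1 the untreated 3-month group was lowest and the 24-month withdrawal group highest, both apart from their neighbours, while the other 4 groups overlapped in a chain. For Apod only the untreated 3-month group was apart from the next. For Mfsd6 the order ran from the 2 untreated groups through the 2 withdrawal groups to the 2 OSK groups; each condition was apart from the next, and the 2 ages overlapped in untreated and in withdrawal cells but not with OSK. For Cd28 all neighbours overlapped below the untreated 3-month group. For Car6 no neighbouring pair of groups was apart.

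Markers of chondrocytes, which ear cartilage can contribute, were lower with OSK than in untreated cells at both ages, as were the group means of Cd28, Moxd1, Gal3st2 and Car6. In untreated cells they were lower at 24 than at 3 months by their medians, 114046.1 against 527691.4. The means of Cd28, Moxd1 and Gal3st2 were also lower in the older untreated cells, and that of Car6 was higher. All 8 listed markers were measured. Their summed level ranged from 365680.8 to 571028.8 in untreated 3-month libraries, from 11629.8 to 21075.6 with OSK and from 219650.7 to 328149.3 after withdrawal. At 24 months it ranged from 23774.8 to 238266.4 in untreated libraries, from 5775.4 to 14136.1 with OSK and from 21978.5 to 150073.7 after withdrawal. The 24-month median was higher after withdrawal than in untreated cells, 130038.1 against 114046.1. The means of Cd28, Moxd1, Gal3st2 and Car6 were lower in that comparison. Col2a1, the main cartilage collagen, averaged 286404.1 ± 72121.3 in untreated 3-month cells, 6059.1 ± 2746.8 with OSK and 132857.0 ± 30920.9 after withdrawal (SD, n = 4). Cd28, Moxd1 and Gal3st2 were likewise highest in untreated young cells and lowest with OSK at that age. After withdrawal at 3 months their means were 18.6-fold, 9.80-fold and 11.3-fold below untreated cells. Of the 8 markers 7 had lower means then than in untreated cells, among them the matrilin Matn3 (595.8 against 2261.6) and the collagen Col9a1 (6187.0 against 19564.3), while the factor Sox9 had a higher one (13278.5 against 9856.2). The part of the chondrocyte markers in these results was not tested.

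**Figure D3:**
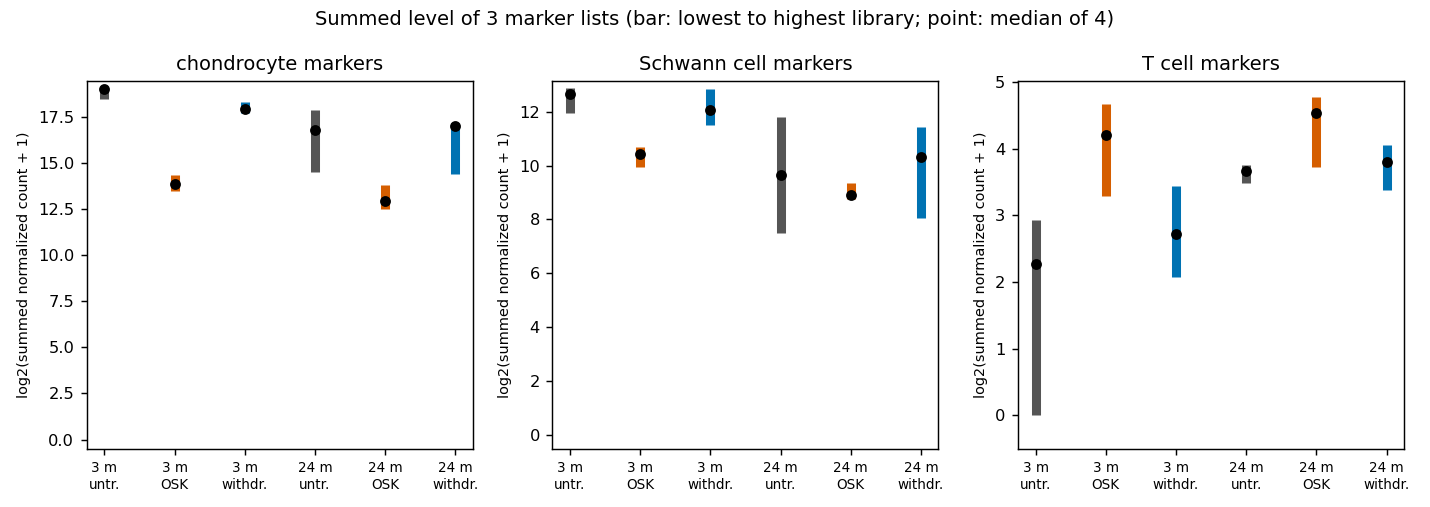
Summed normalized counts, on a log2 scale, of the chondrocyte (8 genes), Schwann cell (10 genes) and T cell (10 genes) marker lists by group; a bar runs from the lowest to the highest of 4 libraries and the point is the median. Chondrocyte markers are lowest with OSK at both ages, and the T cell list sums to at most 26.3 in any library.

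The other marker lists were small beside the fibroblast list or moved with OSK. The 5 endothelial markers summed to between 1268.4 and 1808.4 with OSK at 3 months and between 1895.0 and 4154.1 at 24 months, against 19.2 to 61.1 and 111.1 to 870.1 in untreated cells; nearly all of it was the receptor Tek, at 1427.0 ± 249.9 and 2726.7 ± 942.8 with OSK (SD, n = 4), while Pecam1 averaged 3.81 and 10.7. The 6 macrophage markers ranged from 67.7 to 205.5 over all libraries. The 6 keratinocyte markers summed to between 248.5 and 297.2 with OSK at 3 months and between 356.8 and 621.6 at 24 months, against 149.0 to 210.3 and 195.0 to 278.5 in untreated cells, so OSK libraries were above all untreated ones. Most of that rise was Cdh1, at 92.7 ± 15.1 against 30.4 ± 4.01 and 290.0 ± 125.8 against 59.4 ± 20.6 (SD, n = 4). The keratin Krt10 averaged 119.6 against 98.2 and 106.5 against 116.7, and Krt14 averaged 0.0 and 0.26 with OSK. After withdrawal they ranged from 167.7 to 373.3 and from 195.8 to 439.1. The 5 melanocyte markers ranged from 126.8 to 153.3 and from 81.3 to 103.1 with OSK, against 235.9 to 347.3 and 196.4 to 335.6, and were at 336.2 to 417.8 and 163.4 to 286.4 after withdrawal. The 5 skeletal muscle markers ranged at 3 months from 430.9 to 550.7 with OSK and from 453.9 to 928.5 after withdrawal, against 776.2 to 1132.9, and at 24 months the groups overlapped (331.4 to 1419.5 over the 3). The 4 adipocyte markers ranged at 3 months from 1027.4 to 2279.3 with OSK and from 5932.6 to 10955.8 after withdrawal, against 1682.8 to 6189.9, and the adipocyte hormone Adipoq averaged 169.2 ± 79.6 after withdrawal against 20.8 ± 15.0 in untreated cells (SD, n = 4). At 24 months they ranged from 614.9 to 1451.1 with OSK and from 6563.5 to 15823.1 after withdrawal, against 3410.7 to 16102.8. The part of these cell types in the 9 genes was not tested.

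By Pearson correlation of log2(value + 1) over the 24 libraries, a description in which libraries of a group share treatment and age, the genes most like each of the 9 were sought among other genes with a group mean of at least 50, with predicted genes and clone names left out. Within the 9, Dchs1 and Apod had r = 0.933. Outside them, Fam43a was the closest or second closest gene to Dchs1 (r = 0.887), Ngfr (r = 0.939) and Apod (r = 0.878). Fam43a averaged 2250.2 and 4474.2 in untreated cells, 5855.4 and 7248.4 with OSK, and 3849.5 and 7584.2 after withdrawal, at 3 and 24 months. Mfsd6 was closest to Tmem35a (r = 0.957) and to the galanin receptor Galr2 (r = 0.94). Tmem35a averaged 38.1 and 95.0 in untreated cells, 1083.6 and 3115.1 with OSK, and 194.2 and 328.7 after withdrawal, an order of conditions like that of Mfsd6. Ptn was closest to Tmem44 (r = 0.936) and Marcks (r = 0.925), and Marcks had its own untreated means at 9486.2 and 30538.1, OSK means at 14263.8 and 14386.2, and withdrawal means at 14667.7 and 33278.6. Among the lower genes, Gal3st2 was closest to the fibrinogen chain gene Fgg (r = 0.911), which averaged 206.9 in untreated 3-month cells, 3.46 with OSK and 56.4 after withdrawal. Moxd1 was closest to Aldh1l2 (r = 0.919), Cd28 to Raph1 (r = 0.881) and Car6 to Stk36 (r = 0.876). The closest gene outside the 9 to Dchs1 was Esr1 (r = 0.892) and to Ngfr Hs3st3a1 (r = 0.941).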

How the data were processed

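The authors deposited 1 table of normalized counts (a signal: reads per gene divided by 1 factor per library) for 26206 symbols in 24 libraries. Reads were aligned and counted with tools that the submitters' processing notes list as STAR 2.7.1a and featureCounts 1.6.2; those notes name GRCm38 beside a human build, with no roles. Annotation, strand setting and normalizing tool were not given in the sources used here. Every deposited value was a whole multiple of 1 step per library (tolerance 0.1 steps), so whole reads were recovered for 100% of values.

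Values were taken as log2(value + 1), which understates changes of low genes, and the 14138 genes with at least 10 in at least 4 libraries were fitted over all 6 groups with limma 3.58.1 (R 4.3.3; eBayes with trend and robust). Tests were two-sided, with Benjamini-Hochberg adjustment per contrast and a threshold of 0.05. edgeR 4.0.16 and DESeq2 1.42.0 on recovered reads were alternatives, beside pseudocounts of 0.1 and 10, other filters and scaling, fewer groups, a replicate block and each library left out. Folds are ratios of group means. The fits were tested on simulated data. Deviations of same-number libraries from their group means correlated at 0.107 to 0.261 over 12 pairs at 3 months, all above 0.1. At 24 months 10 of 12 pairs were above 0.1. Over both ages, 21 of 24 pairs had their best match at the same number. The main fit used no pairing, and a block changed no call of the 9 genes at 3 months.

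The 9 genes, gene lists and tests were chosen with earlier results of these data known. Other genes were named by a rule: the 2 most correlated genes of each, the genes ranked next to them by withdrawal difference, up to 3 genes per list with the largest withdrawal difference at the choosing age, and Pou5f1, Sox2 and Klf4; list genes named for another comparison were chosen after their values were seen. Positions are from GENCODE M21 (GRCm38).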

Additional observations from a re-analysis of the deposited data

Results flagged for a closer look

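In 4 of 51 groups of 4 libraries of the 9 genes, 1 library lay far from the other 3 by Dixon's test at 95%. The test used normalized counts and not their log2 values. Its rate of about 1 in 20 groups by chance holds for normally distributed values, which these counts were not shown to be. Ngfr in untreated 24-month replicate 4 was 84.17, the others being 12.05 to 18.14. Ptn in 24-month OSK replicate 4 was 19248.49, against 11764.95 to 12200.11. Mfsd6 in 24-month withdrawal replicate 2 was 325.62, against 99.18 to 123.3. Car6 in untreated 24-month replicate 1 was 140.51, against 35.21 to 44.22. The difference of Ptn between OSK and untreated cells had opposite signs at the 2 ages: it was 2.54 (log2) at 3 months, where every OSK library exceeded every untreated one, and -2.12 at 24 months, where every OSK library was below every untreated one; the difference between the ages was not tested, because the 3-month untreated libraries entered the choice of Ptn.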

How the results depend on the processing

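Of 25 tested differences of the 7 genes other than Cd28 and Gal3st2, which passed the filter only through untreated 3-month cells, 16 were called, and the calls of 10 changed under at least 1 alternative. None of the 16 changed sign. Leaving out 1 library turned the sign of 4 differences that were not called: at 24 months Apod in withdrawal against OSK (-0.018 to 0.39), Cd28 in withdrawal against untreated (-1.34 to 0.054) and against OSK (-0.35 to 0.77), and Cd28 between the OSK groups (-0.65 to 0.087). At 24 months the deviations of same-number libraries correlated at 0.032 to 0.604, with 10 of 12 pairs over 0.1. Over both ages, 21 of 24 such pairs had their best match at the same number. The main fit used no pairing at either age, so calls with the number as a block are given beside it. With replicate number as a block, Ptn (0.85) and Moxd1 (-1.61) were called in withdrawal against untreated at 24 months, and 654 genes in place of 237; the block changed no other call within an age, and it could not be fitted between ages.

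Calls lost, as log2 differences, were as follows. In withdrawal against untreated at 24 months, Apod was lost with no filter, with the 2 groups alone and without trend (1.53 in each) and in edgeR (1.48), and Gal3st2 with pseudocount 10 (-0.63), 2 groups (-2.24) and edgeR (-2.86). Gal3st2 in OSK against untreated at 24 months was lost with pseudocount 10 (-0.58), and Car6 in withdrawal against OSK at 3 months with pseudocount 10 (0.68), no filter and 2 groups (1.82 each). Between the OSK groups Ngfr was lost with pseudocount 0.1 (1.95) and Moxd1 with pseudocount 10 (-0.92). Calls gained were Ptn in withdrawal at 24 months (DESeq2, 0.86), Moxd1 there (DESeq2, -1.77), and between the OSK groups Ptn (2 groups 0.70, DESeq2 0.73), Apod (2 groups, 0.74), Mfsd6 (pseudocount 10 0.93, stricter filter and 2 groups 0.94, edgeR and DESeq2 0.95) and Car6 (pseudocount 0.1, -3.37).

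Leaving out 1 library changed calls, with ranges over all such fits, of Ngfr (1.80 to 2.14), Mfsd6 (0.77 to 1.06), Moxd1 (-2.50 to -1.74) and Gal3st2 (-1.72 to -0.95) between the OSK groups, of Ptn (0.69 to 1.02), Apod (1.17 to 1.81) and Gal3st2 (-2.55 to -2.02) in withdrawal at 24 months, and of Car6 in withdrawal against OSK at 3 months (1.39 to 2.23). Genes called in withdrawal at 24 months numbered 10 with the 2 groups alone and 640 in DESeq2, and 59 (without untreated replicate 2) to 730 (without withdrawal replicate 2) in the fits without 1 library. Those fits gave 631 to 1666 genes in place of 1355 in withdrawal at 3 months, and 1078 to 1588 in place of 1683 between the OSK groups. Low reads limit the log2 values, which follow the pseudocount, of Cd28, Gal3st2, Car6 with OSK, Moxd1 with OSK at 24 months (-5.02 to -2.67 with pseudocounts of 0.1 and 10) and Ngfr against untreated 3-month cells (4.48 to 1.77 after withdrawal, 7.91 to 4.83 with OSK). The causes were not tested.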
